A study of Phaseolus coccineus with 4 samples.

Results

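Isolated WOX9-like regions are stretches of chromatin enriched in both ChIP replicates whose nearest neighbour of the same kind lies at least 50 kb away on either side. They were chosen from the positions of the deposited peaks alone: peaks of both lists that overlapped by at least 1 bp were merged, regions with a peak in each list on the 11 chromosomes were kept (called shared regions here), and those with a gap of at least 50000 bp to the next shared region were taken. Where a region was the first or last of its chromosome, only the existing neighbour counted. The rule gave 546 isolated regions out of 20433 shared regions, or 2.67%. The other 19887 shared regions serve as the comparison.

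WOX proteins are plant transcription factors with a homeodomain, a DNA-binding fold, and take their name from WUSCHEL, which maintains the stem cells of the shoot. In Arabidopsis, WOX9 acts in the early embryo, where it is needed for the fate of the basal cell lineage that gives rise to the suspensor, the stalk that connects the embryo to the seed. Scarlet runner bean has long been used to study this stage because its suspensor is unusually large. In common bean, a close relative, genes are concentrated in the chromosome arms and repeated sequence in the middle, around the centromere.

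Chromatin came from Phaseolus coccineus, the scarlet runner bean (Hammond's Dwarf Red Flower), from the micropylar part of seeds that held globular embryos, 6 days after pollination by hand and 1.6 to 2.5 mm long. The part of the seed taken holds the embryo together with the surrounding seed tissue, so the signal is that of a mixture of cell types. It was crosslinked in 1% formaldehyde, broken into pieces of 100 to 500 bp and bound with an antibody (10 ug) against a WOX9-like peptide. The series holds 2 ChIP samples and 2 input samples of the same tissue, of which the 2 ChIP samples have the peak lists used here. All carry the same genotype and treatment, so that the data compare places in the genome and replicates, not conditions. The labels number the replicates without saying that they came from separate plants, so the spread between them may be technical.

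Replicate 1 held 34876 peaks and replicate 2 held 23218. Total depth is unknown, but the number of ChIP fragments at each summit could be computed from the deposited fold enrichment and p-value. At isolated regions the median was 98 fragments in replicate 1 and 41.5 in replicate 2. The fold enrichment is the authors' value for each peak, the summit's ChIP coverage over the local control background. Per the deposited peak names, the control was called noAb in replicate 1 and input in replicate 2. The kind of control may therefore differ between the lists. Where it does, a mean, SD or ratio over both folds also carries that difference. Coordinates are those of the deposited lists, whose peak names carry the assembly tag Pv442, so that gaps and positions are those of that assembly, which may be of a related species. Genes and sequence at the regions were not analysed here, since no genome or annotation of that build was at hand.

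Isolated regions lay mainly in the middle of the chromosomes, where shared regions were sparse. Of the 546, 325 lay in the middle 50% of their chromosome's span and 221 (40.5%) in the outer 25% at each end, against 69.9% of the other shared regions in those outer parts. The part of the span from 30 to 40% held 77 isolated regions, which was 9.48% of all shared regions there. The part from 90 to 100% held 23, or 0.615%. This place is set by the spacing rule itself and is given as a description. The stretches are long: gaps of at least 50 kb between neighbouring shared regions numbered 2172 and made up 321 Mb, or 62.4% of the 514 Mb spanned by the peaks, whereas the median gap was 6229 bp.

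**Figure D1:**
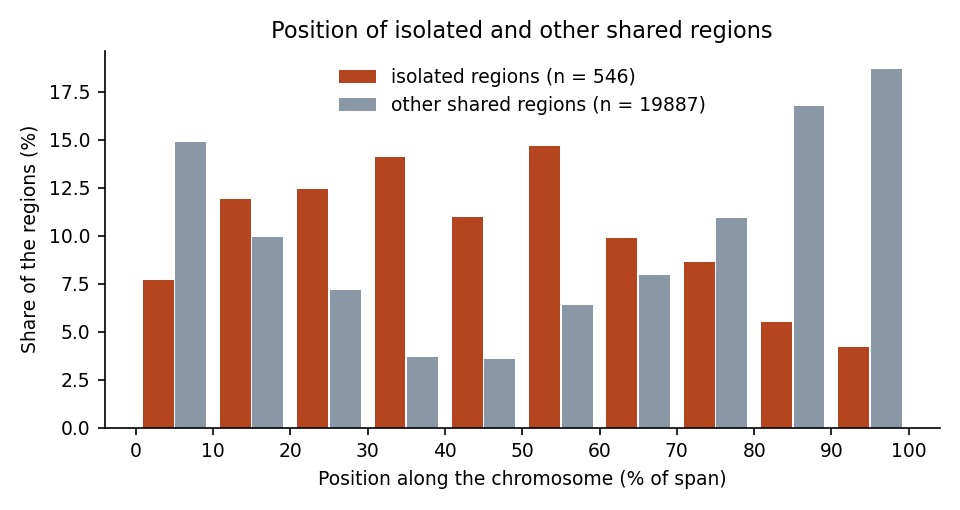
Share of isolated regions (n = 546) and of other shared regions (n = 19887) in each 10% of the chromosome span, all chromosomes together; the x axis is position as a percentage of the span to the last peak and the y axis the percentage of each set. Isolated regions fill each bin from 10 to 60% with 11.0% to 14.7%, whereas other regions fall to 3.59% between 40 and 50% and reach 18.7% in the last bin.

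The number of isolated regions differed between chromosomes. Chromosome 8 held the most, 74, and chromosome 9 the fewest, 21. As a share of shared regions, isolated regions ranged from 0.891% on chromosome 9 to 5.34% on chromosome 10, with 5.25% on chromosome 5, 4.98% on chromosome 11 and 4.95% on chromosome 4. Gaps of at least 50 kb covered 36.8% of the span of chromosome 9 and 78.0% of that of chromosome 4. Chromosome 9 also differed in place. There, 18 of the 21 isolated regions (85.7%) were in the outer parts, whereas 40.1% of the other regions were. On each of the other 10 chromosomes the share of isolated regions in the outer parts was below that of the rest. On chromosome 11 most isolated regions also lay in the outer parts, 38 of 65 (58.5%), against 83.2% of the others.

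Isolated regions often followed each other with no other shared region between. They formed 370 runs, of which 263 were a lone region and 107 were runs of 2 or more that together held 283 isolated regions. The longest run had 7 regions over 974 kb on chromosome 8, from 20369602 to 21343501. Runs of 6 lay on chromosome 5 from 16392001 to 17168225 and on chromosome 8 from 42328048 to 43088082. Within a run, consecutive shared regions were all at least 50 kb apart.

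The median gap to the nearest shared region was 79761 bp, the upper quartile 118544 bp and the highest 843318 bp. Gaps reached at least 100 kb on both sides at 190 regions and at least 500 kb at 9. Values just inside and just outside the threshold are given as a description. The 3 regions just inside lay on chromosome 5 from 12537797 to 12538118 (gap 50007 bp, fold 8.38 in replicate 1 and 5.20 in replicate 2), on chromosome 11 from 2369633 to 2370107 (gap 50131 bp, fold 5.06 and 2.75) and on chromosome 3 from 53276901 to 53277468 (gap 50136 bp, fold 9.13 and 6.45). The 3 just outside all lay on chromosome 8, starting at 43672088, 43722356 and 39398642, with gaps of 49958, 49958 and 49956 bp. The first 2 of these are each other's neighbours. Their folds were 2.43, 5.36 and 6.26 in replicate 1 and 4.21, 2.77 and 3.12 in replicate 2.

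The most isolated regions had folds between 2.94 and 6.71. The region with the largest gap lay on chromosome 11 from 19922276 to 19923058, with 843318 bp to the left and 2284975 bp to the right. Its fold was 6.49 in replicate 1 and 6.04 in replicate 2 (6.26 ± 0.317, SD, n = 2), with 105 and 55 fragments and summits 40 bp apart. Both folds were above the medians of isolated regions, 5.70 and 5.04. The region on chromosome 4 from 24949754 to 24950075 followed a gap of 2746687 bp and had folds of 3.84 and 3.44, with both summits at the same base. Chromosome 11 held the next 2, from 28284316 to 28284631 (fold 3.78 and 6.27) and from 28870038 to 28870483 (fold 6.71 and 6.66), which are each other's neighbours at a distance of 585406 bp. The first of them rested on 31 fragments in replicate 1 over a background of 7.43, the lowest value of that list. The last of these 5, on chromosome 8 from 39953275 to 39953602, had folds of 2.94 and 5.13. Across the 546 regions the gap and the lower of both folds had a Spearman rho of 0.05, a description across regions that share libraries.

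By their medians, isolated regions were enriched nearly as strongly as other shared regions. The share with both folds at 10 or more was lower than among all shared regions, though its 95% interval reached their value. The share was not below the 6.06% of regions 10 to 50 kb from the next. The median fold in replicate 1 was 5.70 (quartiles 4.21 and 7.75) at isolated regions and 5.83 (4.14 and 8.37) at others. In replicate 2 it was 5.04 (3.66 and 7.23) against 5.33 (3.84 and 8.02). Both medians were slightly lower at isolated regions. The medians of both replicates lay farther apart, but that distance does not measure the error of a comparison within a list. Both replicates reached a fold of 10 or more at 35 isolated regions, or 6.41% (95% Wilson interval 4.64 to 8.78, which treats regions as independent). All shared regions gave 8.78%, which the upper end of the interval reaches. The share with a fold of at least 10 was 14.1% in replicate 1, near the 14.9% of all shared regions, and 11.2% in replicate 2, against 15.1%. No test was made of this or of the other differences between isolated and other regions, because regions of the same libraries are not replicates.

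**Figure D2:**
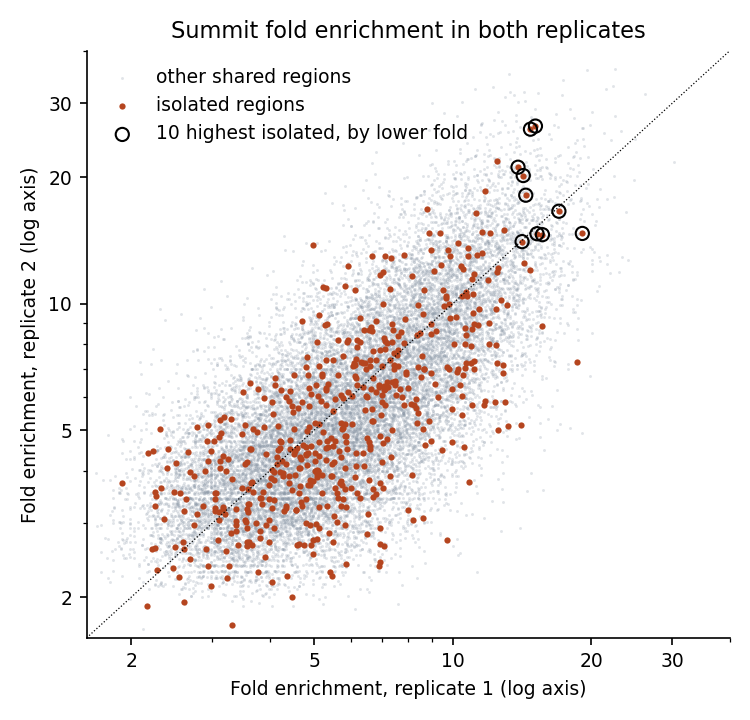
Fold enrichment at the summit in replicate 1 (x axis) and replicate 2 (y axis), both on log axes, for the 546 isolated regions (dark points) and the other 19887 shared regions (pale points); circles mark the 10 isolated ones that lead by lower-of-2 fold and the dotted line marks equal folds. Isolated regions lie within the cloud of the others and do not reach its upper end of 30.2 in replicate 1 and 36.2 in replicate 2.

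The fragments behind these folds and the control background were both lower at isolated regions. The median summit held 98 ChIP fragments in replicate 1, against 107 at other regions, a ratio of 0.916. In replicate 2 it held 41.5 against 47, a ratio of 0.883. The background moved by a similar factor, with medians of 16.0 against 17.6 in replicate 1 (ratio 0.908) and 7.74 against 8.60 in replicate 2 (ratio 0.900). A fold is a quotient of both, and its medians differed by less, with ratios of 0.979 and 0.945. Regions 10 to 50 kb from the next had medians of 98 and 42 fragments and a replicate 2 background of 7.74, much as isolated regions did. Their replicate 1 background was 17.2. The background was lower at isolated regions on 10 of 11 chromosomes in replicate 1, chromosome 9 being the exception, and on 6 in replicate 2, with 2 higher and the rest equal. It stood at the lowest value of the replicate 1 list at 15 isolated regions (2.75%), against 0.313% of all shared regions, and at that of the replicate 2 list at 22 (4.03%), against 1.76%.

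The medians of isolated regions lay below those of regions with a neighbour within 1 kb and slightly above those of regions with a neighbour at 10 to 50 kb. In replicate 1 the median fold was 6.12 at regions with a neighbour within 1 kb and 5.43 at those 10 to 50 kb from the next. It was 5.50 at 50 to 100 kb and 5.92 at 100 kb or more. In replicate 2 the medians were 5.68, 4.93, 5.05 and 5.04 for the same 4 classes. Neither isolated class was below the class of 10 to 50 kb. The share with both folds at 10 or more was 10.6% under 1 kb, 6.06% at 10 to 50 kb, 6.18% at 50 to 100 kb and 6.84% at 100 kb or more.

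**Figure D3:**
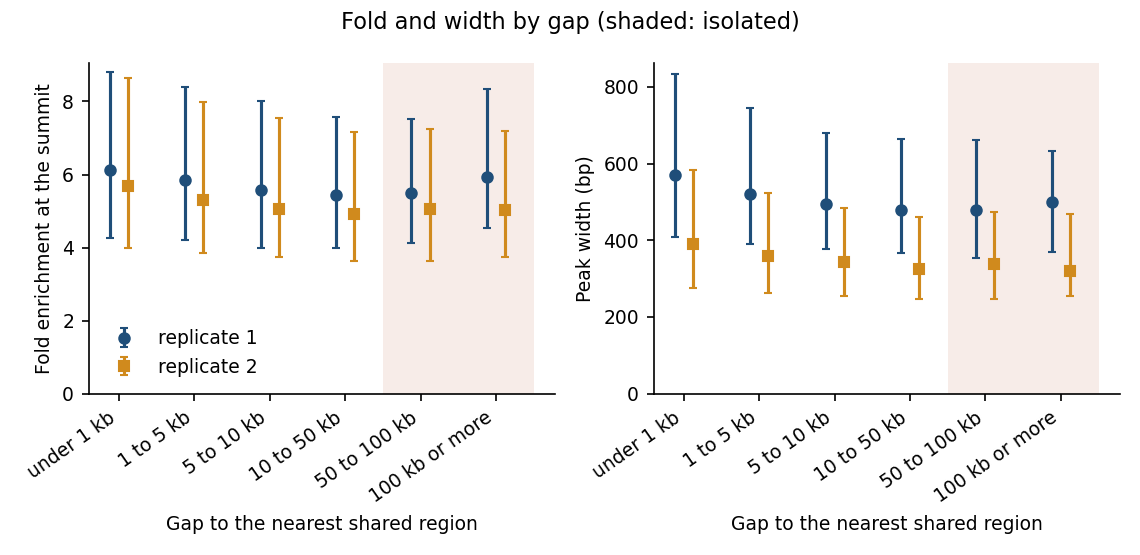
Median (points) and quartiles (bars) over regions of the fold enrichment at the summit (left) and of the peak width in bp (right), for replicate 1 (circles) and replicate 2 (squares), by gap to the nearest shared region; the shaded classes are the isolated regions. Both measures are highest under 1 kb; at 100 kb or more the median fold is 5.92 in replicate 1 and 5.04 in replicate 2, against 5.43 and 4.93 at 10 to 50 kb.

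Isolated regions were somewhat narrower than the rest. The merged region had a median width of 499 bp (quartiles 374 and 683, range 227 to 4452) against 542 bp (quartiles 406 and 773). The peak itself had a median of 485.5 bp in replicate 1 and 331.5 bp in replicate 2, against 526 and 363 bp. The replicates differed by more, but that distance does not measure the error of a comparison within a list. Merged widths were lower at isolated regions on 8 of 11 chromosomes, with the largest difference on chromosome 9 (398 against 539 bp). A width of at least 1500 bp was found at 13 isolated regions (2.38%), against 4.67% of all shared regions. Regions that joined several peaks of a list numbered 26 (4.76%), against 7.33%, and merging depends on how close peaks lie. At regions 10 to 50 kb from the next, the median merged width was 496 bp. There, 2.50% reached 1500 bp and 4.91% joined several peaks of a list.

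The widest isolated regions were few. The widest spanned 4452 bp on chromosome 5, from 25381537 to 25385988, where a replicate 1 peak covered 2 peaks of replicate 2. Its fold was 6.80 in replicate 1 and 9.07 in replicate 2 (7.93 ± 1.61, SD, n = 2), with summits 30 bp apart, and the left gap was 497028 bp. A region of 3087 bp on chromosome 1, from 32402074 to 32405160, joined 2 peaks of each list, with folds of 5.85 and 4.83. The third, 2443 bp on chromosome 3 from 30202335 to 30204777, held a wide replicate 1 peak (fold 6.95) and a replicate 2 peak of only 208 bp (fold 2.68).

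Summits of both replicates lay at a similar distance from each other at isolated regions and elsewhere. The median distance between both summits was 37 bp at isolated regions (quartiles 15 and 65) and 36 bp at others (quartiles 15 and 70). It was at most 100 bp at 462 isolated regions (84.6%, Wilson interval 81.3 to 87.4), against 85% of all shared regions, and at most 10 bp at 92. The interval of the share includes the value of all shared regions, which does not show that they are equal. Summits lay more than 200 bp apart at 27 isolated regions. The farthest, 1662 bp, was at the chromosome 3 region of 2443 bp just described. It was 802 bp on chromosome 7 from 27092811 to 27095005 and 778 bp on chromosome 1 from 12630980 to 12632273. At both, 1 replicate 1 peak covered several replicate 2 peaks, 3 and 2 respectively.

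The strongest isolated region by the lower of both folds lay on chromosome 4 from 28198912 to 28199745, in the middle of the chromosome. Its fold was 17.0 in replicate 1 and 16.6 in replicate 2 (16.8 ± 0.294, SD, n = 2), with 243 and 144 fragments and summits 16 bp apart. The left neighbour was 58657 bp and the right 151686 bp away. Among all shared regions it ranked 84, and the last of the 10 strongest isolated regions ranked 336. Of the 200 highest shared regions 3 were isolated, where 2.67% of all shared regions were.

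Chromosome 5 held 3 of the 10 strongest. The one from 23820248 to 23821206 reached a fold of 14.8 in replicate 1 and 26.0 in replicate 2 (20.4 ± 7.97, SD, n = 2), with 266 and 204 fragments and gaps of 208053 and 199899 bp. The region from 6845089 to 6845709 had 19.1 and 14.7 (16.9 ± 3.14, SD, n = 2), the former the highest replicate 1 fold of any isolated region. The region from 21094156 to 21094934 had 15.2 and 14.7 (15.0 ± 0.406, SD, n = 2) and a right gap of 531507 bp. The second of them was higher in replicate 1, the first in replicate 2, and the third nearly level.

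The highest fold of an isolated region in replicate 2 was on chromosome 7 from 5006293 to 5007029, where it was 26.5 against 15.1 in replicate 1 (20.8 ± 8.02, SD, n = 2). Its background was 5.16 in replicate 2, below that list's median of 8.60. On chromosome 11, the region from 26195952 to 26196859 stood 490716 and 968224 bp from its neighbours, with folds of 14.2 and 20.2 (17.2 ± 4.21, SD, n = 2). Its replicate 2 background of 2.87 was the lowest value of that list. A second region of chromosome 11, from 47592668 to 47593123, had folds of 14.4 and 18.1 (16.3 ± 2.62, SD, n = 2). The region of chromosome 2 from 22843766 to 22844771 had folds of 13.9 and 21.1 (17.5 ± 5.13, SD, n = 2). These 4 regions were all higher in replicate 2. The remaining ones, on chromosome 3 from 16218870 to 16219757 and on chromosome 1 from 9477799 to 9478420, were nearly level, with 15.7 and 14.6 (15.1 ± 0.757, SD, n = 2) and with 14.1 and 14.0 (14.1 ± 0.0711, SD, n = 2).

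The 10 strongest regions lay on 7 chromosomes, 4 of them in the outer parts, and all had summits within 60 bp of each other. Their background was between 11.3 and 17.0 in replicate 1 and between 2.87 and 10.3 in replicate 2. At the other end, the weakest isolated region lay on chromosome 2 from 2659665 to 2660071, with folds of 3.31 and 1.72. It had 152 and 51 fragments, above the median of isolated regions in both replicates, over backgrounds of 45.0 and 29.2.

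Folds of both replicates were related to a similar degree at isolated and at other regions. The folds of both replicates had a Spearman rho of 0.69 across isolated regions and 0.71 across others, and the summit fragments 0.79 and 0.84, as descriptions. On the log2 scale the replicate 2 fold divided by the replicate 1 fold had a median of -0.11 with an SD of 0.54 at isolated regions and -0.06 with an SD of 0.54 at others, and this median was lower at isolated regions on 8 of 11 chromosomes. A difference of more than 2-fold was seen at 35 isolated regions (6.41%), against 6.71% of all shared regions. Of these, 29 were higher in replicate 1 (5.31%, Wilson interval 3.72 to 7.52, background 4.28%) and 6 in replicate 2 (1.10%, interval 0.505 to 2.38, background 2.43%). Counting error of the ChIP fragments alone did not cover the difference at 104 isolated regions (19.0%), where the 95% Poisson intervals of the folds did not overlap, against 21.4% of the others.

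The regions with the most unequal folds are given with their backgrounds, which are part of each fold. The largest excess in replicate 2 was on chromosome 11 from 12812643 to 12813294, where fold was 4.97 (Poisson interval 4.13 to 5.94) in replicate 1 and 13.8 (11.0 to 17.0) in replicate 2. Its summit held 119 and 84 fragments over backgrounds of 23.0 and 5.16, and the summits were 3 bp apart. The others were on chromosome 10 from 1783205 to 1783453 (fold 2.31 and 5.02, background 27.0 and 3.18) and on chromosome 8 from 29671125 to 29671504 (fold 5.22 and 11.0, background 15.0 and 3.56). Over all isolated regions the median ratio of the replicate 2 to the replicate 1 background was 0.467. The largest excess in replicate 1 was also on chromosome 11, from 18441759 to 18442192, where fold was 9.72 (7.95 to 11.8) against 2.73 (2.00 to 3.65). There 103 and 44 fragments stood over backgrounds of 9.64 and 15.5. On chromosome 7 from 19969751 to 19970377 the folds were 6.90 and 2.37 over backgrounds of 14.0 and 13.8, and on chromosome 10 from 13706130 to 13706601 they were 10.8 and 3.75 over backgrounds of 8.00 and 8.60. Of these 3, the replicate 2 background was higher than that of replicate 1 on chromosomes 11 and 10 and nearly as high on chromosome 7. The control's own counting error is not in these intervals.

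**Figure D4:**
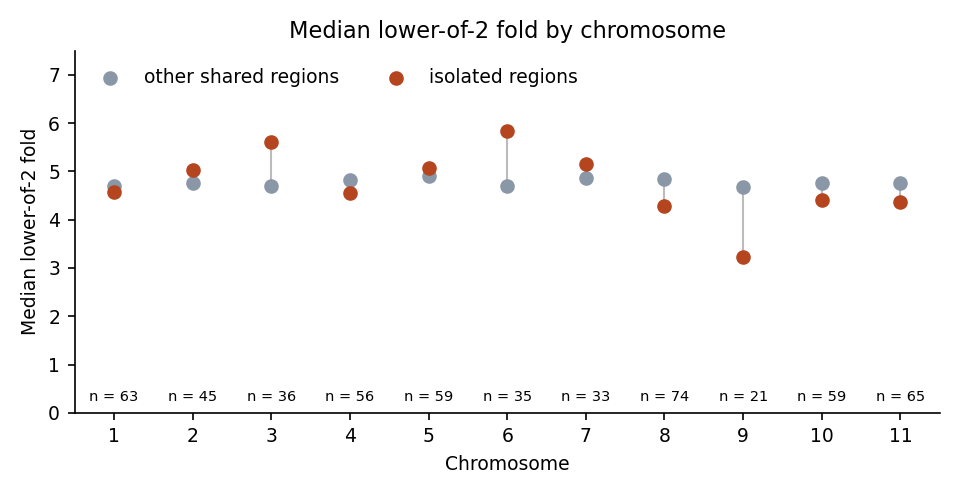
Median lower-of-2 fold (y axis) of isolated regions (dark) and other shared regions (grey) on each chromosome (x axis), with the number of isolated regions at the bottom. Medians of other regions lie close together, from 4.68 to 4.92, and those of isolated regions range from 3.23 on chromosome 9 to 5.84 on chromosome 6.

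The comparison of folds differed by chromosome. The median lower-of-2 fold was lower at isolated regions on 6 chromosomes and higher on 5. It was highest on chromosome 6 (5.84 over 35 regions, against 4.69 at other regions there) and chromosome 3 (5.60 over 36 regions, against 4.69). It was lowest on chromosome 9, with 3.23 over 21 regions against 4.68. The same 21 regions had fewer fragments at the summit, with medians of 68 and 32 against 107 and 48. Their share in the outer parts, 85.7%, was also the highest among the isolated regions of any chromosome. On chromosome 8, which had the most isolated regions, the median was 4.28 against 4.85.

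Among isolated regions, the replicate 1 fold and the lower of both folds were higher in the middle than in the outer parts. The replicate 2 fold was not split by place. Chromosomes differed both in fold and in the share in the outer parts, and place was not separated from chromosome. The 325 in the middle had a median replicate 1 fold of 6.04 and the 221 in the outer parts 5.20, whereas the other shared regions had 5.85 and 5.82. The lower of both folds was 4.78 in the middle and 4.46 in the outer parts at isolated regions, and 4.78 and 4.74 at others. The background in replicate 1 was lower in the middle (15.4 against 17.0 in the outer parts at isolated regions). In replicate 2 the median background of isolated regions was 7.74 in both places. The part of background in the difference was not tested. In the middle, then, isolated and other regions were level by the lower fold.

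Most isolated regions had an unshared peak nearby. A region found in 1 list alone lay within 50 kb of 366 of the 546 (67.0%), against 96.9% of the other shared regions, and within 1 kb of 83 (15.2% against 18.8%). These neighbours came mostly from the longer list: 358 isolated regions had a replicate 1 region nearby and 46 a replicate 2 region, 38 of them both. The other 180 isolated regions had no peak of either list within 50 kb. These 180 had a median fold of 5.77 in replicate 1 and 5.16 in replicate 2, against 5.61 and 5.02 at the 366, and at 14 of them (7.78%) both folds were 10 or more. Of the 10 strongest isolated regions, 5 were among them: those on chromosomes 3 and 4, those starting at 23820248 and 21094156 on chromosome 5 and that starting at 26195952 on chromosome 11. The stretch around the region on chromosome 8 from 39953275 was the emptiest of the 5 with the largest gaps, with the nearest unshared peak 553156 bp away.

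Of peaks that stood alone in the replicate 1 list, a smaller share had a partner in replicate 2. Here isolation was taken within each list, so that the partner in the other list was not part of the choice. Of 403 replicate 1 peaks with no other replicate 1 peak within 50 kb, 185 (45.9%, Wilson interval 41.1 to 50.8) overlapped a replicate 2 peak, against 60.1% (interval 59.6 to 60.7) of the others. Of 502 replicate 2 peaks isolated in their own list, 480 (95.6%, interval 93.5 to 97.1) overlapped a replicate 1 peak, against 96.3%. The share in replicate 1 was lower in each of 5 fold classes of equal size. In the lowest class it was 17.7% (79 isolated peaks, interval 10.9 to 27.6, which includes the 22.1% of the others). In the highest class it was 91.7% (60 isolated peaks, interval 81.9 to 96.4) against 96.5%. The difference was largest in the middle class, at 40.6% (96 isolated peaks, interval 31.3 to 50.6) against 61.2%. In that class the median folds were 4.33 and 4.36, but isolated peaks had fewer fragments (59 against 74) and a lower background (12.7 against 16.0). Over all classes, isolated replicate 1 peaks were also narrower, with a median of 353 bp against 407 bp. The parts of lower counts and of width in the difference were not tested. In replicate 2 the shares of both sets differed by at most 2.08 percentage points in any class.

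**Figure D5:**
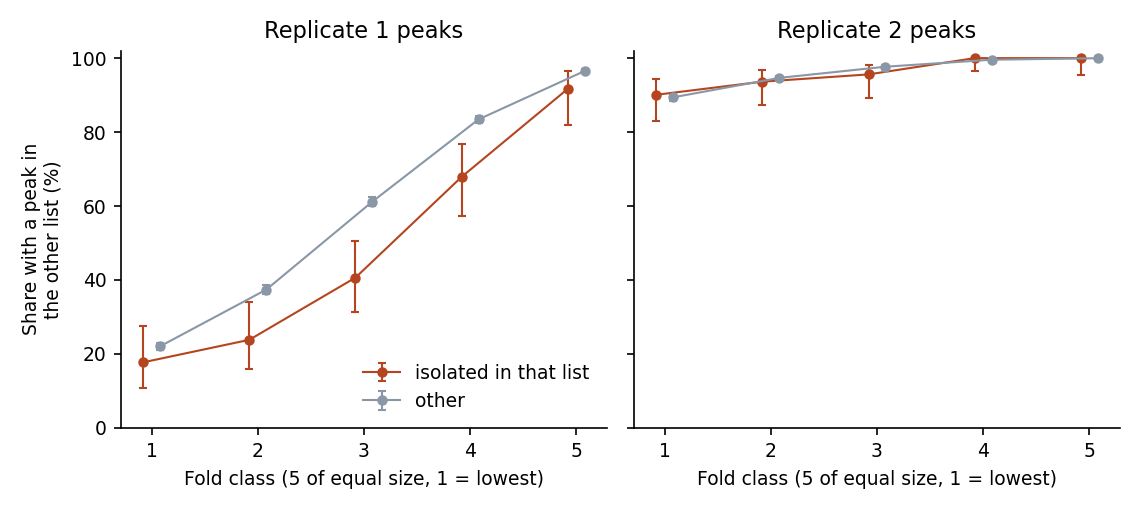
Share of peaks with an overlapping peak in the other list (y axis, percent) by fold class, 5 classes of equal size (x axis, 1 lowest), for replicate 1 peaks (left) and replicate 2 peaks (right), with isolation taken within each list; bars are 95% Wilson intervals. Isolated replicate 1 peaks lie below the others in every class, and both sets of replicate 2 peaks lie at 89.4% or above.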

How the data were processed

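Binding was profiled by ChIP-seq in 2 WOX9-like ChIP samples, with 2 input samples whose files were not used here. Per the submitters' processing notes the tools were Bowtie 0.12.7, SAMtools 0.1.18 and MACS2; settings and the MACS2 version are not given in the sources used here. The authors deposited a peak list per sample. Each deposited list gives the fold enrichment (a ratio), the p-value and q-value as −log10, and a score that follows the q-value. The assembly tag (Pv442) is not explained in the sources used here. It may stand for a genome of common bean, Phaseolus vulgaris; positions and gaps would then be those of a related species, and reads of sequence which that genome lacks would be missing. The other deposited column used is the summit's offset from the peak start.

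Merging, gaps and summaries were computed with Python 3.11.15, pandas 2.3.3 and SciPy 1.17.1. Gaps count the bases between regions. Each region took the summit, fold and width of its highest-fold peak per list. The last peak of either list marks the end of a chromosome's span. Summit fragments were solved from fold, taken as (coverage + 1)/(background + 1), and from p, taken as a Poisson tail. Whole fragments (within 0.005) solved all peaks, with ChIP counts scaled by 0.99444 in replicate 1 and unscaled in replicate 2. At 102 replicate 2 peaks, 5 of them in isolated regions, several solutions fitted and the closest was taken. Wilson and Poisson intervals are at 95% and cover counting error only, and amplified reads without molecular identifiers are no independent molecules. The scripts were tested on simulated data.

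No test was run, since the members were picked from these lists. The named regions are, among isolated regions, the 10 with the highest lower-of-2 fold, the 5 with the largest gap, the 3 widest, the 3 with the highest and the 3 with the lowest ratio of replicates, the 3 with the farthest summits and the 3 on each side of the gap threshold. The weakest isolated region was named after its values were seen. The members and comparisons were chosen with earlier results of these data known. Alternatives varied the gap, the neighbours counted, the overlap, the q-value and the replicate used.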

Additional observations from a re-analysis of the deposited data

How the results depend on the processing

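Of 52 alternative values, 42 stayed within their limits (1.5 times for the number of regions, 1 SD between replicates or a 95% interval otherwise). The 10 that moved concerned the number, the share in the outer parts, the width and the share with high folds. The limits were 4.11 to 5.05 for the lower fold and 390 to 608 bp for width. Both ranges also hold the medians of the other shared regions, 4.76 and 542 bp. Staying within them therefore does not bear on the difference between isolated and other regions. Several settings kept mostly the same regions, so little movement was possible there. With chromosome ends left out 544 of the 546 remained, and 498 with the stricter q-value. The log2 ratio of the folds stayed negative wherever it was recomputed. The 8 settings were 3 other neighbour rules, 1 rule for chromosome ends, 1 overlap, 1 q-value and either replicate left out. Under all 8, isolated regions had a lower median fold and width than the other regions of the same setting. Their share in the outer parts was also lower. The settings vary 1 spacing rule on the same lists, so their agreement is no independent support. The fold difference was smallest with any region as a neighbour (4.69 against 4.75). By chromosome, the median lower-of-2 fold was lower at isolated regions on 6 and higher on 5. At regions 10 to 50 kb from the next it was 4.38, below both isolated classes (4.54 and 4.65). The number of isolated regions depends on the rule: a gap of at least 25000 bp gave 1392 and one of at least 100000 bp gave 190. Counting any region of either list as a neighbour gave 180. Under these 3 settings 50.3%, 27.9% and 30.6% of the isolated regions lay in the outer parts of the chromosomes, against 40.5%. With either replicate left out, regions are the peaks of 1 list. The number was then 403 to 502 and the share in the outer parts 29.5% to 39.4%. Median width, a peak's own and not that of a merged region, was 318 to 353 bp against 499 bp. The median lower-of-2 fold was 4.25 to 4.72, and the share with a fold of at least 10, then in 1 list alone, was 6.70% to 10.2%. Of the 546 regions, 477 overlapped a region isolated in the replicate 2 list and 185 one isolated in the replicate 1 list. No paired analysis was possible because no input file was analysed, and only 1 group, the ChIP samples, has values. Total depth is unknown. Precision rests on the fragments at the summit, with medians of 98 and 41.5 at isolated regions, and on the control background.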
